A study of Mus musculus with 12 samples.

Results

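A set of 10 secreted or membrane-bound signalling proteins of macrophages was followed at the mRNA level: Tnf, Il6, Il12b, Il10, Il27, Osm, Csf1, Tgfb1, Tnfsf9 and Tnfsf10. They were chosen by name, as the rows of the count table whose Ensembl identifier carries one of these symbols, and they are 10 of the 54532 genes listed. Earlier results of these data were known when they and the gene lists below were chosen. Their shares beside those of all genes are therefore descriptive. All 10 had enough counts to be tested, among 15338 tested genes. The data are bulk RNA sequencing of bone marrow-derived macrophages (BMDMs), grown in culture from mouse bone marrow, in 4 groups of 3 libraries. The groups were untreated cells of control mice (WT), untreated cells of Gpnmb R150X mutant mice (R150X), and cells of each genotype given oxidised low-density lipoprotein (OxLDL). Gpnmb encodes a transmembrane glycoprotein that is abundant in lipid-laden macrophages, and R150X names a premature stop in it that is known from DBA/2 mice. The series asked how GPNMB affects the change of macrophages into lipid-filled foam cells. The labels gave 1 strain for both genotypes, a DBA/2 by C57BL/6 cross taken back to C57BL/6, so any DBA/2 segment that travels with the allele cannot be told apart from it. No OxLDL dose or duration was given, and no vehicle, age or sex. No batch was named either, and the untreated and OxLDL samples were registered under separate runs of numbers. Any batch that follows treatment therefore cannot be told apart from OxLDL. Nothing said whether the 3 libraries of a group came from separate mice or cultures, so p-values measure the spread between these libraries, which may be technical.

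Total counts ran from 14838969 to 18222868 per library, and 3 counts, the limit used for a gene with no reads, corresponded to 0.158 to 0.209 CPM, the count on a scale common to all libraries. CPM values are scaled by the trimmed mean of M-values (TMM), and every mean ± SD is over n = 3 libraries. Gpnmb was checked first: it held 5330 ± 37.8 CPM in WT and 385 ± 23.9 CPM in R150X, and with OxLDL 12508 ± 136 and 706 ± 16.3 CPM, so the 6 libraries of each genotype were separated. The macrophage markers Adgre1, Csf1r, Cd68, Itgam, Lyz2, Mertk, Fcgr1 and Cd14 were all present, at a summed 19453 to 24766 CPM. Lyz2 made up most of this sum, and the single markers moved apart with OxLDL. Of the 8, 3 rose and 3 fell in WT, and 3 rose and 5 fell in R150X (edgeR test described below). Over all genes tested, 22.7% rose and 23.1% fell in WT, and 18.4% rose and 20.6% fell in R150X. In WT, Adgre1 went from 2727 to 833 CPM and Cd14 from 329 to 108 CPM. Cd68 went from 717 to 1241 CPM and Mertk from 111 to 197 CPM. The RNA was not of macrophages alone. Summed stromal markers (8 genes, of which the collagens Col1a1, Col1a2 and Col3a1 made up most of the sum) held 12883 to 12996 CPM in WT, 8595 to 8660 in R150X, 6167 to 6791 in WT with OxLDL and 6029 to 6336 in R150X with OxLDL. Summed neutrophil markers (9 genes) held 418 to 443, 189 to 206, 118 to 137 and 37.4 to 38.5 CPM in the same order. Single markers did not all follow these sums. Cxcl12 held 758 to 771, 908 to 935, 757 to 785 and 1415 to 1455 CPM, and Dcn was at 47.1 ± 1.52, 28.8 ± 3.19, 46.8 ± 4.08 and 22.9 ± 1.74 CPM. Mpo, a neutrophil precursor gene, was at 4.69 ± 0.220, 1.57 ± 0.406, 6.99 ± 0.895 and 0.937 ± 0.266 CPM. Summed markers held 1.32 to 2.79 CPM for T and NK cells, 2.11 to 4.11 CPM for B cells and 1.09 to 4.08 CPM for mast cells and basophils. These sums were low beside that of the macrophage markers but above the counting limit. Klrb1c, Cd79a, Cd79b and Gata2 among them had enough counts to be tested. The part of these cells in the rarer cytokine mRNAs was not tested. Xist, made only from an inactive X chromosome, was at 0 to 2.75 CPM in the WT libraries and at 228 to 349 CPM in the R150X libraries. The Y-linked genes Ddx3y, Eif2s3y, Kdm5d and Uty were present in both genotypes and lower in R150X, for example Uty at 31.8 to 35.5 CPM in WT libraries and 17.9 to 20.2 CPM in R150X libraries. R150X libraries thus held RNA with markers of both sexes, and the genotypes cannot be told apart from this difference.

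Tumour necrosis factor (TNF) and interleukin-6 (IL-6) are the classical inflammatory cytokines of macrophages, switched on by NF-kB within hours of a danger signal. Il12b encodes the p40 chain, which pairs with other chains to make IL-12 or IL-23, and Il27 encodes the alpha chain of IL-27. IL-10 and TGF-beta limit inflammation, and IL-10 acts through STAT3, as IL-6 and oncostatin M (Osm) also do. Csf1 encodes the growth factor on which macrophages depend for survival. Tnfsf9 (CD137 ligand) and Tnfsf10 (TRAIL) are members of the TNF family that sit on the cell surface. On GRCm38, with the strand in brackets, the inflammatory cytokines lie as follows: Tnf (ENSMUSG00000024401) at chr17:35199381-35202007 (minus), Il6 (ENSMUSG00000025746) at chr5:30013114-30019981 (plus), Il12b (ENSMUSG00000004296) at chr11:44400063-44414033 (plus) and Il27 (ENSMUSG00000044701) at chr7:126589010-126594941 (minus). The regulatory and growth factor genes are Il10 (ENSMUSG00000016529) at chr1:131019845-131024974 (plus), Osm (ENSMUSG00000058755) at chr11:4236420-4241026 (plus), Csf1 (ENSMUSG00000014599) at chr3:107741048-107760469 (minus) and Tgfb1 (ENSMUSG00000002603) at chr7:25687002-25705077 (plus). The other TNF family ligands are Tnfsf9 (ENSMUSG00000035678) at chr17:57105325-57107757 (plus) and Tnfsf10 (ENSMUSG00000039304) at chr3:27317028-27342427 (plus).

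The promoters of Tnf, Il6 and Il12b are shown because these mRNAs all fell steeply with OxLDL, and that of Tgfb1 because it rose. Each sequence is the 250 bases before the RefSeq start on GRCm38.p6, 5′ to 3′ on the gene's own strand. The windows are chr17:35202008-35202257 (minus strand) for Tnf, chr5:30012864-30013113 (plus) for Il6, chr11:44399813-44400062 (plus) for Il12b and chr7:25686752-25687001 (plus) for Tgfb1. Capitals mark matches on either strand to a wide NF-kB pattern (GGG and CC with any 5 bases between them), TGANTCA (AP-1), TTCNNNGAA (STAT) or TATAAA (the TATA box).
Tnf: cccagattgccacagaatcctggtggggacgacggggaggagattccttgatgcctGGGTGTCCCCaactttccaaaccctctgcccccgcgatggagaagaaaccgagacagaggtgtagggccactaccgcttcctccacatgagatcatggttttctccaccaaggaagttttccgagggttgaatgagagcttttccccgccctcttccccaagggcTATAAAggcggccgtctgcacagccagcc
Il6: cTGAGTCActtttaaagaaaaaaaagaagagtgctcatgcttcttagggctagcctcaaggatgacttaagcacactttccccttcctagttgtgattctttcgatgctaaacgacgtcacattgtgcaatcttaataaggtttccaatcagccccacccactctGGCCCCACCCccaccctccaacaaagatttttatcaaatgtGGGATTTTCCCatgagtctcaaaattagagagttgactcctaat
Il12b: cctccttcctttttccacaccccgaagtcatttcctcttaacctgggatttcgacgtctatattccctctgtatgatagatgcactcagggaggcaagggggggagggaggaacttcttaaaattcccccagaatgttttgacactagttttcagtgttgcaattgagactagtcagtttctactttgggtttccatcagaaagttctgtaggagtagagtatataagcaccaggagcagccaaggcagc
Tgfb1: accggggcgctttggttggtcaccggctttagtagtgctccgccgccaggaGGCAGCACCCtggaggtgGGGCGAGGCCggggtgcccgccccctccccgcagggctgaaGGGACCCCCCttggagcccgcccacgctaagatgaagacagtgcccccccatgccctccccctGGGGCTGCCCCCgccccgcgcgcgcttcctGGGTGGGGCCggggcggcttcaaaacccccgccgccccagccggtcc

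The Tnf window held 1 match to the NF-kB pattern, from -194 to -185 counted from the start, and a TATA box from -29 to -24. The Il6 window held 3 matches to the NF-kB pattern, of which those beginning at -44 and -43 overlap, and an AP-1 match from -249 to -243. The Il12b window held none of the 4 patterns, which says only that these letters are not in it. The Tgfb1 window held 7 matches to the NF-kB pattern, 3 of them overlapping between -77 and -66, in a sequence that was 75.2% G and C against 57.6% for Tnf, 42.8% for Il6 and 46% for Il12b. Of 32851 promoters in the same table, 45.8% held the NF-kB pattern, 6.75% TGANTCA, 7.02% TTCNNNGAA and 12.4% TATAAA. Csf1 and Tnfsf10 also had an entry, with 4 matches to the NF-kB pattern and with no match.

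Untreated WT cultures held mostly Tgfb1, Tnf and Csf1 mRNA among the 10. Per kilobase of merged exon, Tgfb1 stood at 64.1 ± 2.77 CPM, Tnf at 52.3 ± 1.15 and Csf1 at 44.1 ± 1.76, and the ranges of these 3 did not overlap. Il10 followed at 7.64 ± 1.19 CPM per kilobase. The other 6 lay between 0.608 (Tnfsf10) and 2.54 (Tnfsf9) CPM per kilobase, and in that order Tnfsf9 and Il27, Osm and Il12b, and Il6 and Tnfsf10 overlapped their neighbour. The order of the first 4 was the same in untreated R150X cells. With OxLDL the order changed: in WT, Tgfb1 (90.6 ± 5.77 CPM per kilobase) was followed by Csf1 (33.8 ± 1.48), Tnf (5.59 ± 1.13) and Osm (2.07 ± 0.317). R150X cells with OxLDL had the same first 4, at 96.6 ± 2.29, 31.3 ± 0.580, 5.70 ± 0.611 and 2.02 ± 0.240 CPM per kilobase.

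**Figure D1:**
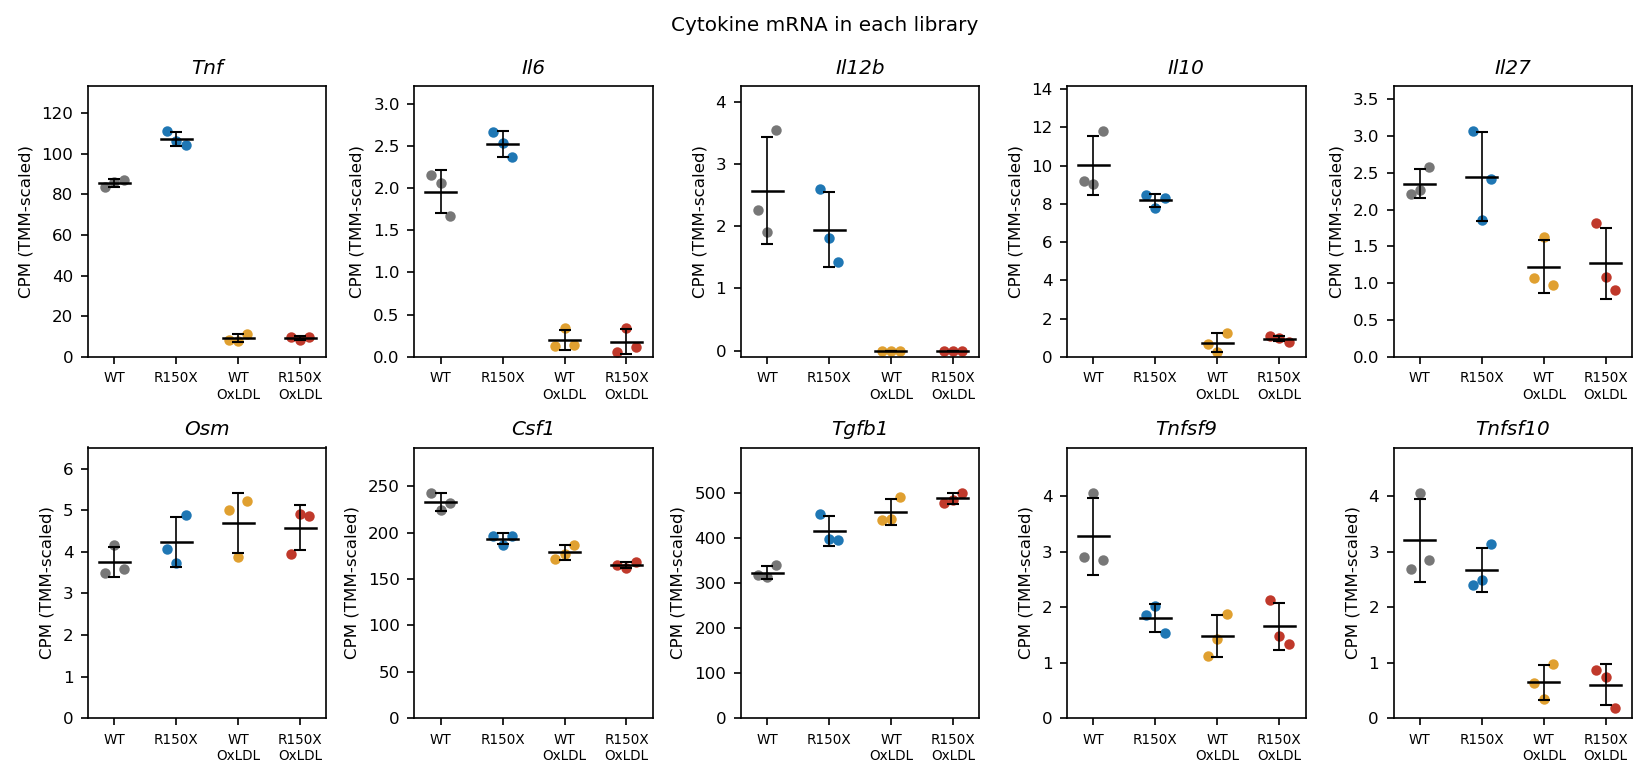
CPM (TMM-scaled, linear axes that differ between panels) of the 10 cytokine mRNAs in each of the 12 libraries, with points for libraries and bars for the mean ± SD of the 3 libraries of a group. Tnf, Il6, Il12b, Il10 and Tnfsf10 sat lower in all 6 OxLDL libraries than in all 6 untreated ones, and Osm libraries overlapped across the groups.

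The first question was what OxLDL did to these mRNAs in WT cells. OxLDL lowered most of the inflammatory and regulatory cytokines, and Tgfb1 alone rose: 8 of the 10 fell and 1 rose in edgeR's quasi-likelihood test (p adjusted by Benjamini-Hochberg over the 15338 genes, threshold 0.05). Over all genes tested, 23.1% were called lower and 22.7% higher. The median log2 fold change of the 10 was -1.73, beside 0.01 for all genes tested. In bulk RNA, fewer cells of a type and less RNA per cell cannot be told apart. Of the stromal markers 4 of 8 fell with OxLDL in WT (Col1a1, Col1a2, Col3a1 and Pdgfrb) and none rose by edgeR or DESeq2 (1 at an unadjusted p under 0.05). Of the 8 neutrophil markers tested 5 fell and 1, Mpo, rose. Of the 2 dendritic cell markers tested 1 fell in WT and 2 fell in R150X, and none rose. The part of these cells in the results was not tested.

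Tnf fell to 10.7% of its untreated level. The WT libraries held 83.5, 86.2 and 87.2 CPM untreated and 8.46, 7.76 and 11.3 CPM with OxLDL, which is a log2 change of -3.23 (SE 0.0909) with an adjusted p of 2.63e-17. Every treated library was far below every untreated one. Il6 was rare before treatment, at 2.16, 2.06 and 1.66 CPM, and stood at 0.125, 0.340 and 0.139 CPM after it. That is 9 counts in all against 110, or 10.2% of the untreated level (exact 95% interval 4.54% to 20.1%, counting error only), and the log2 change was -3.24 (SE 0.428) with an adjusted p of 2.09e-06. Tnf was thus an abundant mRNA before treatment and Il6 was not.

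Il12b had 2.26, 1.90 and 3.54 CPM in untreated WT libraries and no count in any OxLDL library. Against a limit of 3 counts over the group, it was at least 38.6-fold lower (adjusted p = 3.24e-07). The chains that can pair with p40 are Il12a and Il23a. Il12a, the other chain of IL-12, was at 1.14 ± 0.289 CPM untreated and 0.179 ± 0.0469 CPM with OxLDL (log2 fold change -2.63, SE 0.485, adjusted p = 0.00013), and Il23a had too few counts to be tested; both are named as partners of p40, outside the rule for named genes. Il27 fell less, from 2.21, 2.27 and 2.58 CPM to 1.07, 1.63 and 0.973 CPM (log2 fold change -0.94, SE 0.291, adjusted p = 0.0117). Its groups did not overlap, but the call was lost without OxLDL replicate 1 (adjusted p = 0.0527) or 3 (adjusted p = 0.0578). Part of the Il27 exons, 103 of 1021 bases, lies over exons of Apobr on the other strand, and the strand setting of the counting was not given in the sources used here. Ebi3, the partner chain of Il27, also fell, from 49.9 ± 1.76 to 24.3 ± 1.55 CPM.

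Il10 fell with the inflammatory cytokines. It held 9.22, 9.02 and 11.8 CPM untreated and 0.689, 0.272 and 1.25 CPM with OxLDL, for a log2 change of -3.76 (SE 0.246) and an adjusted p of 4.05e-11. The highest treated library was still far below the lowest untreated one. Among the TNF family, Tnfsf10 went from 2.69, 4.06 and 2.84 CPM to 0.627, 0.340 and 0.973 CPM (log2 fold change -2.30, SE 0.359, adjusted p = 1.91e-05). Tnfsf9 went from 2.91, 4.06 and 2.84 CPM to 1.13, 1.43 and 1.88 CPM (log2 fold change -1.15, SE 0.254, adjusted p = 0.000837). Neither overlapped between treated and untreated libraries. For Tnfsf9, 192 of 1290 exon bases are shared with the non-coding Gm11110 on the other strand.

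The 2 abundant growth factors changed little and in opposite directions. Csf1 fell from 243, 225 and 232 CPM to 172, 177 and 187 CPM (log2 fold change -0.38, SE 0.0491, adjusted p = 1.35e-06). Tgfb1 rose from 317, 313 and 339 CPM to 439, 441 and 490 CPM (log2 fold change 0.50, SE 0.0572, adjusted p = 2.76e-07). In both genes all treated libraries lay on one side of all untreated ones. Osm, made by activated macrophages and neutrophils, did not pass: it held 3.50, 4.17 and 3.60 CPM untreated and 5.01, 3.88 and 5.21 CPM treated (log2 fold change 0.32, SE 0.169, adjusted p = 0.125), and these ranges overlapped.

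In R150X cells OxLDL lowered 7 of the 10 and raised 1, beside 20.6% and 18.4% of all genes tested. The median log2 fold change of the 10 was -1.54, beside 0.0039 for all genes tested. Tnf fell from 111, 106 and 104 CPM to 9.91, 8.18 and 9.92 CPM, 8.72% of the untreated level (log2 fold change -3.52, SE 0.0886, adjusted p = 3.48e-18). Il6 went from 2.67, 2.54 and 2.36 CPM to 0.0627, 0.343 and 0.122 CPM, which is 9 counts against 128 or 7.19% (exact 95% interval 3.21% to 14.1%). Its log2 fold change was -3.75 (SE 0.415, adjusted p = 2.13e-07). Il12b, at 2.60, 1.80 and 1.43 CPM untreated, again had no count in any treated library and was at least 32.3-fold lower (adjusted p = 1.12e-06). These 3 inflammatory mRNAs were low in all 3 treated libraries.

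Il10 in R150X went from 8.47, 7.78 and 8.30 CPM to 1.07, 0.973 and 0.791 CPM (log2 fold change -3.11, SE 0.236, adjusted p = 5.83e-10). Tnfsf10 went from 2.40, 2.48 and 3.13 CPM to 0.878, 0.744 and 0.183 CPM (log2 fold change -2.14, SE 0.367, adjusted p = 7.21e-05). Il27 went from 3.07, 1.86 and 2.42 CPM to 1.82, 1.09 and 0.913 CPM (log2 fold change -0.94, SE 0.286, adjusted p = 0.0128). Treated and untreated Il27 libraries came close to touching, at 1.82 and 1.86 CPM. Its call was lost without untreated replicate 1 (adjusted p = 0.0619), OxLDL replicate 2 (0.0591) or OxLDL replicate 3 (0.0714).

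Csf1 fell in R150X from 197, 187 and 197 CPM to 165, 162 and 168 CPM (log2 fold change -0.23, SE 0.0493, adjusted p = 0.000915). Tgfb1 rose from 453, 397 and 395 CPM to 478, 484 and 500 CPM (log2 fold change 0.23, SE 0.0569, adjusted p = 0.00257). Neither overlapped, and untreated replicate 1 was the highest untreated library for Tgfb1. Tnfsf9 did not pass, with 1.87, 2.03 and 1.54 CPM untreated and 2.13, 1.49 and 1.34 CPM treated (log2 fold change -0.13, SE 0.268, adjusted p = 0.732). Osm did not pass either, with 4.07, 3.72 and 4.89 CPM and then 3.95, 4.92 and 4.87 CPM (log2 fold change 0.12, SE 0.166, adjusted p = 0.623). Both genes overlapped between treated and untreated libraries.

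**Figure D2:**
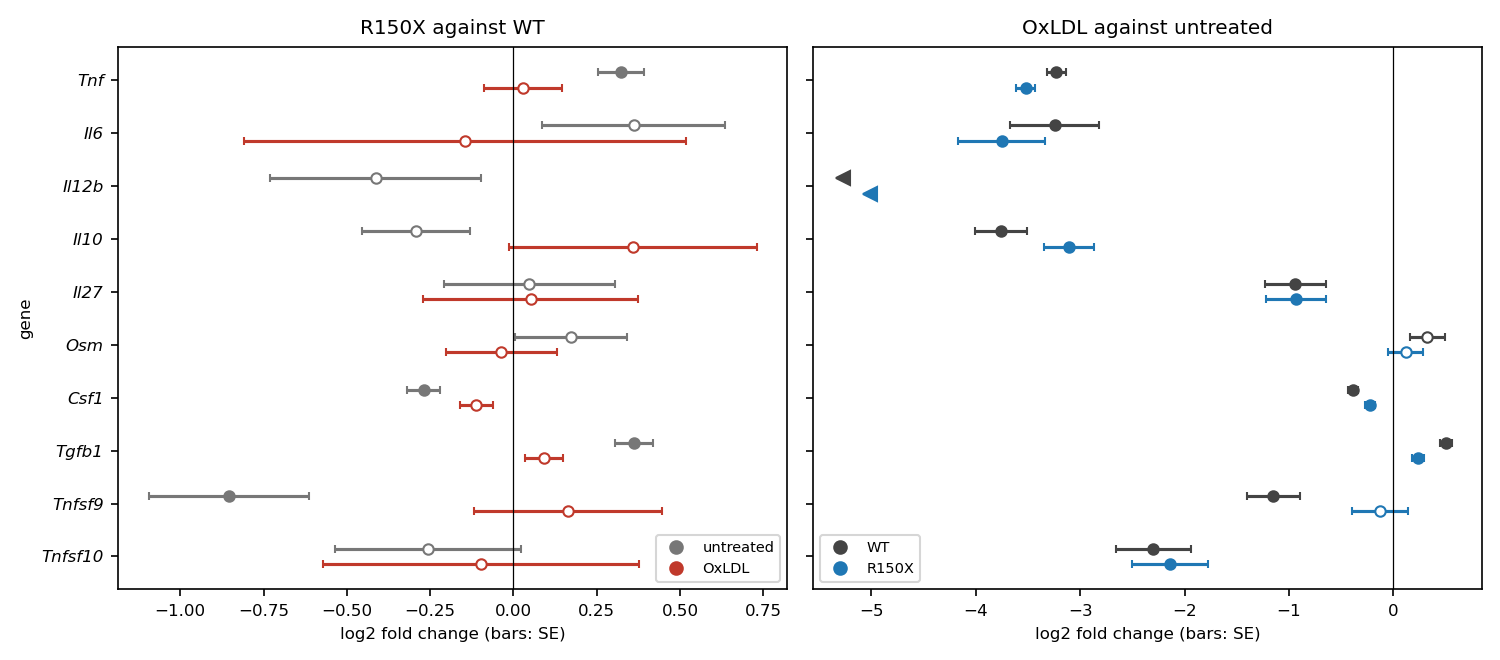
Log2 fold changes with SE bars for the 10 cytokines, R150X against WT on the left (untreated grey, OxLDL red) and OxLDL against untreated on the right (WT dark grey, R150X blue), with filled points at an adjusted p under 0.05 and Il12b triangles at its lower bounds of 38.6-fold in WT and 32.3-fold in R150X. Tnf, Il6, Il10 and Tnfsf10 lie below -2 with OxLDL in both genotypes, while every genotype difference lies within ±1.

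The second question was whether the R150X allele changed the cytokines of untreated cells. Tnf and Tgfb1 were higher and Csf1 and Tnfsf9 lower in R150X, and the other 6 did not pass. Over all genes tested, 18.1% were higher and 14.8% lower, so 2 of 10 in each direction is near the background. The median log2 fold change of the 10 was -0.10, beside 0.01 for all genes tested. Tnf was at 107 ± 3.51 CPM in R150X against 85.6 ± 1.89 CPM (log2 fold change 0.32, SE 0.0688, adjusted p = 0.00116), and all 3 R150X libraries were above all WT ones. Tgfb1 was at 323 ± 14.0 and 415 ± 33.1 CPM (log2 fold change 0.36, SE 0.0571, adjusted p = 5.63e-05), again with no overlap.

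Csf1 was lower in R150X, at 193 ± 5.72 against 233 ± 9.30 CPM (log2 fold change -0.27, SE 0.0488, adjusted p = 0.000243). Of the 8 markers of stromal cells, a source of Csf1 in marrow, 5 were also lower in R150X (the 3 collagens, Pdgfrb and Dcn), 2 were higher (Cxcl12 and Lum) and Pdgfra did not pass. The part of those cells in this difference was not tested. Tnfsf9 was at 1.81 ± 0.250 CPM in R150X and 3.27 ± 0.684 CPM in WT (log2 fold change -0.85, SE 0.241, adjusted p = 0.00959). WT replicate 2 was the highest library for Tnfsf9, and without it the log2 fold change was -0.67 with an adjusted p of 0.0767. The 6 that did not pass included Il6 (log2 fold change 0.36, SE 0.276, adjusted p = 0.334) and Il10 (log2 fold change -0.29, SE 0.162, adjusted p = 0.176). For Il12b the log2 fold change was -0.41 (SE 0.317), for Tnfsf10 -0.26 (SE 0.279), for Osm 0.17 (SE 0.168) and for Il27 0.05 (SE 0.257).

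With OxLDL none of the 10 passed between genotypes by edgeR or by DESeq2, and 1 (Csf1, named after its value was seen) had an unadjusted p under 0.05. Over all genes tested, 6.1% were higher and 6.92% lower in R150X. Csf1 was at 165 ± 3.06 CPM in R150X and 179 ± 7.81 CPM in WT (log2 fold change -0.11, SE 0.0495, adjusted p = 0.161), and the 2 groups did not overlap. Tgfb1 was at 487 ± 11.5 against 457 ± 29.1 CPM (log2 fold change 0.09, SE 0.0569, adjusted p = 0.336), and Tnf at 9.34 ± 1.00 against 9.16 ± 1.85 CPM (log2 fold change 0.03, SE 0.117, adjusted p = 0.918). Osm was at 4.58 ± 0.545 against 4.70 ± 0.720 CPM (log2 fold change -0.04, SE 0.167), Il27 at 1.27 ± 0.481 against 1.22 ± 0.358 CPM (0.05, SE 0.323) and Tnfsf9 at 1.65 ± 0.422 against 1.48 ± 0.377 CPM (0.16, SE 0.283). Il6, Il10 and Tnfsf10 were under 1 CPM on average in both groups, with log2 fold changes of -0.15 (SE 0.664), 0.36 (SE 0.372) and -0.10 (SE 0.475). For Il12b, with no count in all 6 OxLDL libraries, no fold was estimated.

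The third question was whether the OxLDL response itself differed between genotypes, which was tested as the response in R150X minus that in WT. Of the 10 cytokines 1 passed in the lower direction and none in the higher, beside 5.19% and 3.13% of all genes tested. At an unadjusted p under 0.05 there were 2 in each direction, and DESeq2 also called 1 lower and none higher. Tgfb1 rose less in R150X (log2 difference -0.27, SE 0.0805, adjusted p = 0.0428). That call was lost with library size alone as the scale (-0.18, adjusted p = 0.18) and in 7 of the 12 fits that left out 1 library, and over those 12 the difference ran from -0.31 to -0.19. Without untreated R150X replicate 1, the library that was highest for Tgfb1 in its group, it was -0.19 with an adjusted p of 0.0627. Tnfsf9 had a difference of 1.02 (SE 0.372, adjusted p = 0.102), so its fall in WT and the absence of a call in R150X were not shown to differ. Tnf had -0.29 (SE 0.136, adjusted p = 0.207) and Csf1 0.16 (SE 0.0695, adjusted p = 0.182), and Csf1 passed with library size alone (0.25, adjusted p = 0.0267). This comparison shares its untreated libraries with the untreated genotype comparison.

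**Figure D3:**
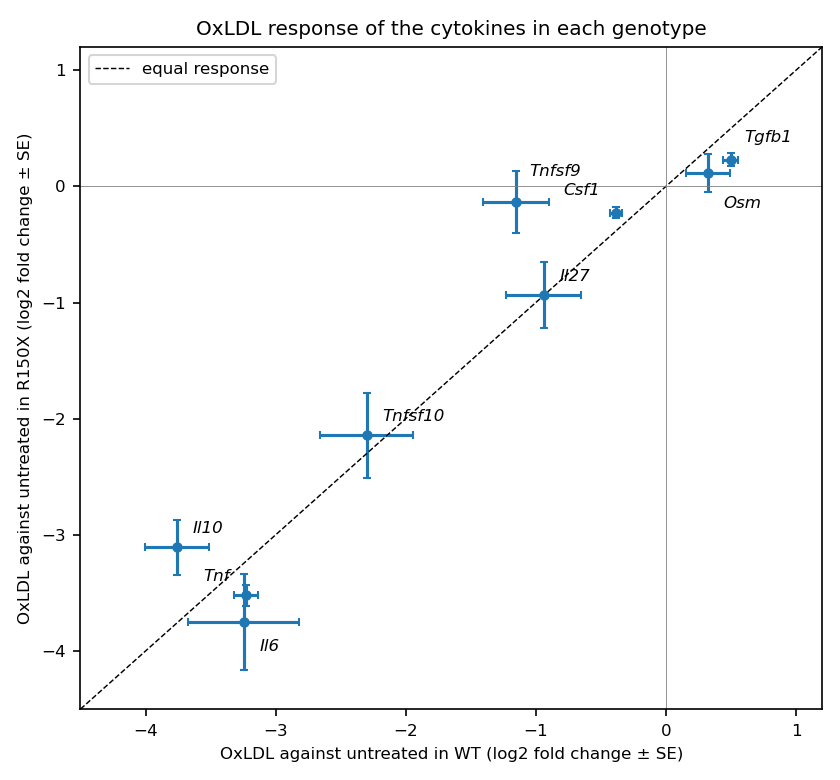
Log2 fold change with OxLDL in R150X (vertical axis) against that in WT (horizontal axis) for 9 cytokines, with SE bars and a dashed line of equal response; Il12b, without counts in any OxLDL library, is left out. Most points lie near the line, and Tnfsf9 (-1.15 in WT, -0.13 in R150X) stands farthest above it.

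The genes around the cytokines were followed with 7 lists, ordered from regulators to targets, against the shares of all genes given above and medians over all genes tested of -0.017 to 0.014. The regulators that act on cytokine genes were 27 transcription factors, with a median log2 fold change of 0.16 between untreated genotypes, -0.027 between genotypes under OxLDL, -0.18 with OxLDL in WT and -0.22 with OxLDL in R150X. In untreated R150X cells 14 rose and 1 fell, or 11 and 3 with library size alone and 13 and 0 without WT replicate 1. Fos, an AP-1 subunit, stood at 122 ± 2.54 CPM against 79.2 ± 2.55 CPM in WT (log2 fold change 0.62, adjusted p = 3.59e-09). Atf3, a stress-induced repressor of cytokine genes, was at 255 ± 3.49 and 376 ± 17.2 CPM, and Egr2, an early-response factor, at 73.2 ± 3.75 and 105 ± 3.06 CPM.

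With OxLDL this list went both ways: 7 rose and 13 fell in WT, and 5 rose and 14 fell in R150X. Ets2, which binds cytokine promoters, fell to 36.9% of its untreated level in WT and 34.9% in R150X. Irf1, an activator of Il12b and other inflammatory genes, fell to 41.2% in R150X. Egr2 went the other way in WT, from 73.2 ± 3.75 to 142 ± 3.41 CPM.

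Between genotypes under OxLDL, 2 of the 27 regulators were higher and 3 lower, near the 6.1% and 6.92% of all genes tested. Egr1, an early-response factor, was at 50.1 ± 1.83 CPM in R150X and 24.3 ± 0.610 CPM in WT (log2 fold change 1.04, adjusted p = 6.66e-10). Fos was also higher (log2 fold change 0.30), while Prdm1, a repressor, was lower (-0.35). The log2 response itself was shifted downward in R150X for 8 regulators and upward for 1. A downward shift was a steeper fall for Irf1 and a smaller rise for Egr2 and Atf3. Irf1 had a difference of -0.68 (SE 0.0807, adjusted p = 1.3e-05), Egr2 of -0.67 (SE 0.0726, adjusted p = 4.41e-06) and Atf3 of -0.53 (SE 0.0641, adjusted p = 1.61e-05).

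Of 29 partner chains and related cytokines, 16 had enough counts to be tested. Their median log2 fold changes, in the same order of comparisons, were -0.18, -0.017, -0.89 and -0.41. OxLDL lowered 8 and raised 4 in WT, and lowered 8 and raised 3 in R150X. Both other TGF-beta isoforms went against Tgfb1. Tgfb3 fell from 76.1 ± 2.59 to 32.3 ± 1.57 CPM in WT and from 52.7 ± 0.866 to 34.5 ± 1.08 CPM in R150X, and Tgfb2 fell from 35.7 ± 1.00 to 19.7 ± 1.10 CPM in WT. These 2 responses were smaller in R150X, with a log2 difference between genotypes of 0.62 for Tgfb3 (SE 0.0823, adjusted p = 4.17e-05) and of 0.40 for Tgfb2 (SE 0.107, adjusted p = 0.0245). Tnfsf15, a TNF family ligand, fell to 5.76% of its untreated level in R150X.

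In untreated cells 2 of these 16 were higher in R150X and 3 lower, near the 18.1% and 14.8% of all genes tested. DESeq2, library size alone, the fit to the 2 groups alone and each of 4 left-out libraries (WT replicates 1 and 3, R150X replicates 1 and 3) gave 1 higher. Tgfb3 was lower, at 52.7 ± 0.866 against 76.1 ± 2.59 CPM. Lif, an IL-6 family cytokine, was at 5.14 ± 0.517 CPM in R150X and 9.44 ± 0.407 CPM in WT. Tnfsf12 (TWEAK) was higher, at 29.7 ± 2.46 against 20.8 ± 2.47 CPM. Lif was also the 1 gene of the 16 called between genotypes under OxLDL (2.31 ± 0.640 against 4.06 ± 0.408 CPM, adjusted p = 0.00562). That count is near the 6.92% of all genes tested that were lower.

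Release of TNF from the membrane, activation of latent TGF-beta and decay of cytokine mRNA were followed with 23 genes, all tested, with medians of -0.056, -0.14, -0.38 and -0.53 in that order. With OxLDL 14 fell in each genotype, and 5 rose in WT and 4 in R150X; the 5 were 2 with library size alone, 3 without WT replicate 1 and 2 without WT OxLDL replicate 3. Timp3, the inhibitor of the TNF-releasing protease ADAM17, fell from 355 ± 7.99 to 51.0 ± 3.53 CPM in WT and from 242 ± 22.6 to 36.2 ± 1.01 CPM in R150X. Thbs1, an activator of latent TGF-beta, fell from 3074 ± 51.4 to 1665 ± 7.47 CPM in WT. Mmp9, a matrix protease that can activate TGF-beta, fell to 32.1% of its untreated level in WT and to 13.1% in R150X, and this response differed between genotypes (log2 difference -1.30, SE 0.0807, adjusted p = 2.03e-09).

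Between untreated genotypes 4 of these 23 were higher and 9 lower in R150X. Mmp9 was at 278 ± 12.9 CPM in R150X and 118 ± 4.68 CPM in WT. Thbs1 was lower, at 1872 ± 147 CPM against 3074 ± 51.4 CPM, and so was Lrrc32, which holds latent TGF-beta at the surface, at 39.7 ± 1.47 against 62.9 ± 2.04 CPM. Nrros, of the same list and named outside the rule, went the other way, at 238 ± 4.14 against 181 ± 0.872 CPM. With OxLDL Nrros was at 325 ± 1.98 CPM in R150X and 278 ± 2.13 CPM in WT. Under OxLDL 8 were lower in R150X and 1 higher, or 4 higher without WT OxLDL replicate 3. Thbs1 (1046 ± 14.8 against 1665 ± 7.47 CPM), the protease Mmp14 (248 ± 10.2 against 339 ± 13.4 CPM) and Itgav, the integrin chain that activates TGF-beta (169 ± 9.23 against 228 ± 13.2 CPM), were among the 8. Many of these genes are also made by stromal cells, whose marker sums are given above, and the part of those cells was not tested.

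All 20 receptors of these cytokines were tested, and as many rose as fell in WT. OxLDL raised 6 and lowered 6 in WT, beside 22.7% and 23.1% of all genes tested. In R150X it raised 5 and lowered 9, beside 18.4% and 20.6% of all genes tested. The medians of the receptors were -0.16, -0.17, -0.015 and -0.16 in the order given. Il10rb, a chain of the IL-10 receptor, rose from 92.9 ± 1.92 to 133 ± 0.789 CPM in WT. The oncostatin M receptor Osmr fell from 57.1 ± 1.15 to 40.3 ± 2.03 CPM, and Tnfrsf11b, a decoy receptor that binds TRAIL, to 69.1% of its untreated level. In R150X, Tnfrsf1b, the second TNF receptor, fell to 70.6% and Csf1r, the CSF1 receptor, to 73.3% of their untreated levels, while Tgfbr3 rose to 151%.

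In untreated R150X cells 5 receptors were higher and 8 lower than in WT. Tnfrsf1b was at 1184 ± 47.3 against 910 ± 12.7 CPM (log2 fold change 0.38, adjusted p = 3.29e-07), in the same direction as its ligand Tnf. Osmr (36.3 ± 3.68 against 57.1 ± 1.15 CPM) and Tgfbr2 (251 ± 11.2 against 321 ± 11.7 CPM) were lower. Under OxLDL 1 receptor was higher and 8 were lower in R150X, where none of the 10 ligands passed. Tgfbr1 was at 176 ± 12.3 against 243 ± 10.5 CPM, Il10ra at 129 ± 1.74 against 163 ± 4.35 CPM and Csf1r at 1032 ± 16.7 against 1234 ± 15.2 CPM. The log2 responses of Csf1r (difference -0.50, SE 0.0518, adjusted p = 2.63e-06), Tnfrsf1b (-0.38, SE 0.0566, adjusted p = 0.00015) and Il10ra (-0.36, SE 0.0649, adjusted p = 0.001) were shifted downward in R150X. For Csf1r and Tnfrsf1b this came with the falls in R150X given above. Tnfrsf1b was alike with OxLDL, at 836 ± 9.58 CPM in R150X and 835 ± 19.6 CPM in WT, and differed in untreated cells.

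Of 20 genes known to be induced by TNF and NF-kB, OxLDL lowered 18 and raised 1 in WT, and lowered 19 and raised none in R150X (by DESeq2 also 19 and none, and 1 rose at an unadjusted p under 0.05). Their median log2 fold changes were -2.57 and -2.41, beside 0.25 between untreated genotypes and -0.20 between genotypes under OxLDL. Il1b, which encodes the inflammatory cytokine IL-1 beta, fell from 116 ± 3.60 to 2.50 ± 0.235 CPM in WT and from 245 ± 9.30 to 1.10 ± 0.518 CPM in R150X. The chemokine Ccl5 fell to 0.494% and 0.403% of its untreated level, and Sod2, a mitochondrial antioxidant enzyme, to 17.2% and 11.4%. In untreated cells 11 of the 20 were higher in R150X and 1 lower, or 9 and 2 with library size alone, 10 and 2 with no filter on low counts and 11 and 2 in the fit to the 2 groups alone. Cxcl2, a neutrophil chemokine, was at 38.8 ± 4.42 against 8.67 ± 0.790 CPM, and Il1b at 245 ± 9.30 against 116 ± 3.60 CPM. Tnf itself stood at 125% of WT.

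Under OxLDL 4 of the 20 were higher in R150X and 6 lower. The 6 became 3 without WT OxLDL replicate 1 or 2 or R150X OxLDL replicate 1 or 2. Ccl3 (34.5 ± 1.21 against 20.7 ± 2.16 CPM) and Ccl4 (12.6 ± 1.09 against 8.91 ± 0.562 CPM) were higher, and Ccl2 (8.50 ± 0.518 against 16.2 ± 2.00 CPM), all of them chemokines, was lower. On the log2 scale the response was shifted downward in R150X for 10 genes, or 6 with library size alone. It was shifted upward for none by edgeR, by DESeq2 and at an unadjusted p under 0.05. For Il1b the shift was a steeper fall (log2 fold change -5.53 in WT and -7.81 in R150X), as it was for Sod2 (-2.54 and -3.13). The difference in response was -2.28 for Il1b (SE 0.232, adjusted p = 2.09e-06) and -0.59 for Sod2 (SE 0.0727, adjusted p = 2.02e-05).

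Targets of STAT3, through which IL-6, IL-10 and oncostatin M act, were followed with 15 genes, with medians of -0.15, -0.37, -0.81 and -0.99 in the order given. OxLDL lowered 11 in each genotype and raised 2 in WT and 1 in R150X. Socs3, the feedback inhibitor of IL-6 signalling, fell from 191 ± 7.01 to 48.7 ± 5.04 CPM in WT and from 111 ± 8.25 to 28.1 ± 2.32 CPM in R150X. Tnip3, an IL-10 induced inhibitor of NF-kB, fell to 13.5% and 13.1% of its untreated level. In untreated cells 5 were higher and 7 lower in R150X (3 and 7 with library size alone, 3 and 5 without WT replicate 3). The kinase Pim1 was higher, at 103 ± 3.91 against 61.9 ± 2.65 CPM, and Socs3 lower, at 111 ± 8.25 against 191 ± 7.01 CPM. Under OxLDL 2 were higher and 9 lower: Il1rn, the antagonist of the IL-1 receptor, was at 138 ± 2.96 against 81.8 ± 5.44 CPM, and Il4ra, a chain of the IL-4 receptor, at 91.3 ± 2.39 against 142 ± 3.93 CPM.

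Of the TGF-beta targets, 16 genes in all, more fell than rose with OxLDL, where Tgfb1 rose. In WT 10 fell and 2 rose, and in R150X 8 fell and 2 rose. Their medians were -0.088, -0.025, -0.75 and -0.26 in the order given. Tgfbi, a matrix protein named for its induction by TGF-beta, fell from 555 ± 9.38 to 266 ± 5.52 CPM in WT and from 314 ± 5.82 to 120 ± 4.13 CPM in R150X. Between untreated genotypes 6 were lower and 2 higher in R150X, where Tgfb1 was higher; 1 was higher with library size alone or without WT replicate 1 or 2. Tgfbi stood at 56.6% of WT, while Id2, which keeps helix-loop-helix factors off DNA, stood at 151%. Under OxLDL 4 were higher and 4 lower, or 2 higher without R150X OxLDL replicate 3. Tgfbi (120 ± 4.13 against 266 ± 5.52 CPM) and Skil, a feedback inhibitor of TGF-beta signalling (39.7 ± 2.10 against 65.1 ± 1.07 CPM), were among the lower. Smad6 (13.4 ± 1.06 against 7.47 ± 0.915 CPM) and Id3 (52.8 ± 2.84 against 41.5 ± 0.666 CPM), named outside the rule, lay the other way. Stromal cells also make Tgfbi, and the part of those cells was not tested.

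**Figure D4:**
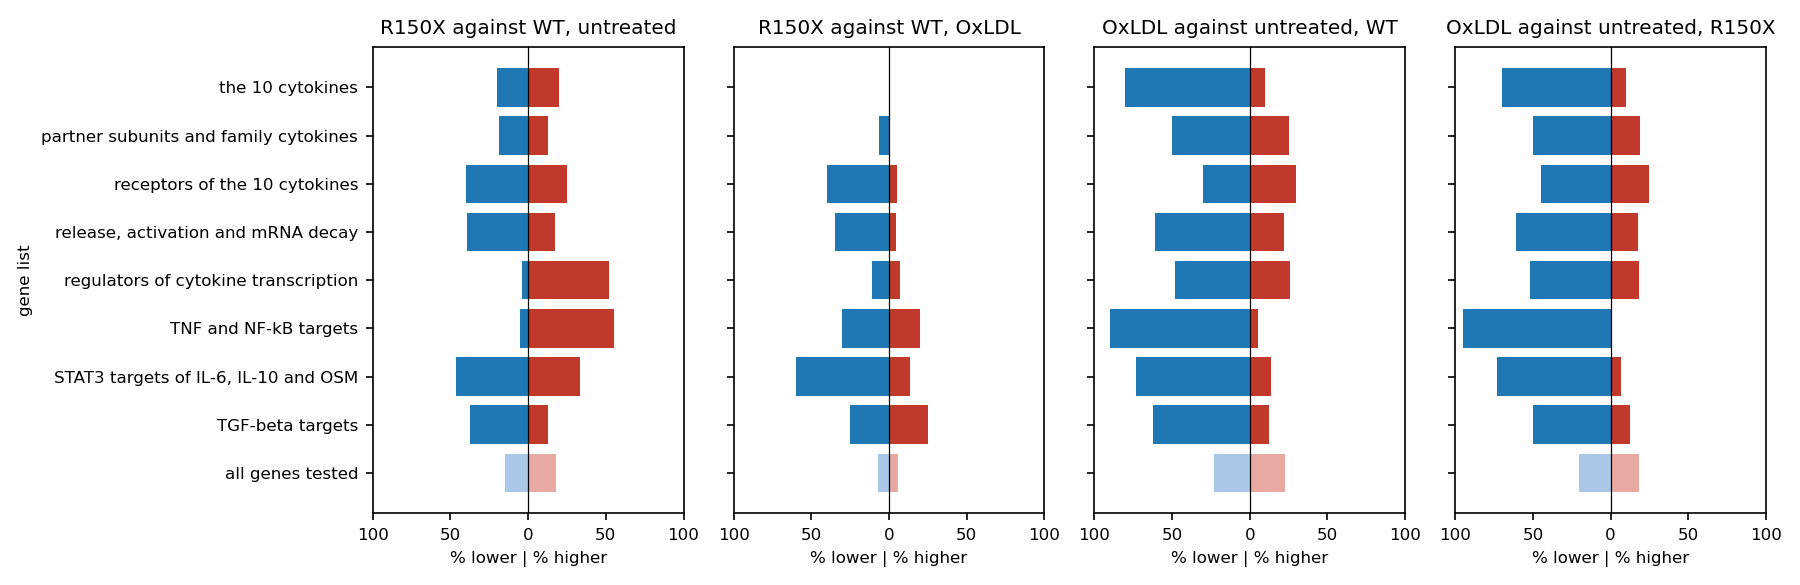
Share of the tested genes of each list called lower (blue, to the left) and higher (red, to the right) at an adjusted p under 0.05, in percent, for 4 comparisons, with all genes tested in pale bars at the bottom. With OxLDL in WT the blue bar of every list is longer than the 23.1% of all genes. These bars run from 6 of 20 for the receptors to 18 of 20 for the TNF and NF-kB targets, with 8 of 10 for the cytokines.

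The genes whose log2 CPM followed each cytokine most closely over the 12 libraries were named as a description, since the 12 points fall into 4 groups. Igtp (Pearson r = 0.999) and Gramd1a (0.997) were most like Tnf, and Tgtp2 (0.986) and Irf9 (0.983) most like Il6. Stk40 (0.988) and Socs1 (0.981) were most like Il10, and Tubb5 (0.995) and Igfbp3 (0.994) most like Il12b. For Tgfb1 they were Tfeb (0.995) and Trim47 (0.994), and for Csf1 Shmt2 (0.990) and Dbn1 (0.984). For Tnfsf10 they were Isg20 (0.964) and Idh3a (0.961), for Il27 Zfp131 (0.965) and Hacd3 (0.940), for Tnfsf9 Tango6 (0.929) and Sytl2 (0.906), and for Osm Tcf25 (0.882) and Zfp182 (0.855).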

How the data were processed

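RNA of mouse BMDMs was isolated with Qiagen's RNeasy Plus kit, per the labels' protocols, and 12 libraries were built with a Dual-mode kit of the Hieff NGS Ultima series. The authors deposited 1 table of raw counts per Ensembl gene. The submitters' processing notes name FastQC, HISAT2, featureCounts and DESeq2, with no version, and the builds mm10 and GRCm38. The authors' gene annotation and their strand setting are not given in the sources used here. Symbols, coordinates and exon lengths came from the GENCODE annotation of GRCm38, where 54409 of 54532 identifiers matched. Low-count genes were removed with filterByExpr by group, and counts were scaled by TMM (factors 0.969 to 1.05).

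With edgeR 4.0.16 (R 4.3.3), a single model gave each group its own coefficient over the 12 libraries, and the quasi-likelihood test was applied to 5 contrasts. Adjusted p is Benjamini-Hochberg over 15338 genes, and "rose" and "fell" mean an adjusted p under 0.05. A gene with no count in a group got a bound from 3 counts over that group. The alternatives were DESeq2 1.42.0, RLE scaling, library size alone, no filter, only the groups compared, the replicate number as a block, and leaving out each library. The scripts were tested on simulated data. The cytokines and gene lists were chosen with earlier results of these data known. From each list up to 3 called genes per comparison are named, those of smallest adjusted p whose higher group averaged 1 CPM or more, and for each cytokine the 2 genes of highest Pearson r of log2 CPM (prior count 1) among named genes (no clone or Gm symbols) that averaged 5 CPM or more. Some genes that this rule names are not reported here. Promoters came from RefSeq, where Tnf, Il6, Il12b, Csf1, Tgfb1 and Tnfsf10 had an entry.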

Additional observations from a re-analysis of the deposited data

Results flagged for a closer look

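The OxLDL response of Tgfb1 differed between the genotypes in the test of the difference itself. The response in R150X minus that in WT was -0.27 on the log2 scale (SE 0.0805, edgeR quasi-likelihood adjusted p = 0.0428). Tgfb1 rose in both genotypes, to 141% of the untreated level in WT and 117% in R150X, and its untreated level was already 128% of WT in R150X. The call was not stable. It was lost with library size alone (-0.18, adjusted p = 0.18) and in 7 of the 12 fits that left out 1 library, among them the fit without untreated R150X replicate 1, the highest of its group (-0.19, adjusted p = 0.0627).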

How the results depend on the processing

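Of 620 refits of single cytokines, 574 kept the direction and the side of the threshold, 14 lost the call, 1 gained it and 31 changed sign; the cause was not tested. With library size alone, the cytokines called for the difference in response became 1 higher and 0 lower, in place of 0 and 1. When 1 library was left out, the number called lower ran from 0 to 1 for that difference and from 1 to 2 for the untreated genotype comparison. None of the values that changed sign was called. Il27 in the untreated genotype comparison was -0.029 with library size alone. With 1 library left out, that Il27 value ran from -0.14 to 0.21. Under OxLDL, the genotype difference ran from -0.075 to 0.20 for Tnf, -1.05 to 0.43 for Il6, -0.023 to 0.94 for Il10, -0.28 to 0.31 for Il27, -0.16 to 0.057 for Osm, -0.055 to 0.37 for Tnfsf9 and -0.45 to 0.32 for Tnfsf10. The difference in response ran from -1.41 to 0.068 for Il6, -0.33 to 0.26 for Il27 and -0.19 to 0.58 for Tnfsf10.

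Library size alone moved the median log2 fold change of all genes by -0.11 for OxLDL in WT. It moved the share of called genes that were higher from 55.0% to 36.1% (untreated genotypes), from 49.6% to 31.6% (OxLDL in WT) and from 37.6% to 66.5% (difference in response).

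Replicate numbers were shared by the groups in the labels, but same-numbered libraries deviated together (correlation over 0.1) for only 1, 2, 1 and 0 of 3 numbers in the 4 pairwise comparisons in the order untreated genotypes, OxLDL genotypes, OxLDL in WT and OxLDL in R150X, so the numbers were not taken as pairs. With the replicate number as a block, genes called went from 5056 to 5355, 1996 to 2164, 7025 to 7190, 5983 to 6209 and 1276 to 1491 (difference in response), and no count of the 10 cytokines changed. Of the list counts in the report, it gave 1 rise in place of 2 for partner cytokines between untreated genotypes, 2 in place of 1 for release genes between genotypes under OxLDL, and 1 in place of 0 for TNF targets with OxLDL in R150X. In the OxLDL genotype comparison every R150X library correlated best with the WT library of its own number, which is a hint from the data and not the design. Depth limits Il6, Il12b, Il10 and Tnfsf10 under OxLDL, where 3 counts correspond to 0.172 to 0.209 CPM.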

Other observations

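Chi-square over degrees of freedom, for counts of 2 replicates across genes, was 2.31 to 4.76, with an exception: untreated R150X replicate 1 gave 9.23 and 10.1 against replicates 2 and 3. Adipocyte markers (Adipoq, Plin1, Car3 and Cfd), summed, held 0.633 to 0.808 CPM in WT, 3.07 to 4.12 in R150X, 2.32 to 4.15 in WT with OxLDL and 38.3 to 43.9 in R150X with OxLDL. Osteoclast markers, whose cells also depend on Csf1, held 157 to 163, 172 to 192, 93.6 to 104 and 120 to 127 CPM in the same order. Single markers moved apart: Acp5 averaged 92.5, 67.9, 23.6 and 19.4 CPM and Ctsk 62.5, 100, 71.7 and 98.8 CPM. Of the 4 tested, 2 were higher and 1 lower in untreated R150X than in untreated WT cells by edgeR. With OxLDL in WT, 1 rose and 2 fell.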
